A study of Mus musculus with 15 samples.

Results

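Arteries and veins of the mouse embryo are distinguished by a small set of endothelial genes, and 10 of them were followed here across the aorta-gonad-mesonephros (AGM) region. They were chosen by name as well-known markers and regulators of arterial or venous identity, and they are Efnb2, Nrp1, Gja5 and Unc5b on the arterial side, Sox7, Sox17 and Sox18 of the SoxF family, and Ephb4, Nr2f2 and Nrp2 on the venous side. All 10 were found among the 28876 genes of the table, and all 10 were among the 18553 genes tested. The AGM region holds the dorsal aorta, whose endothelium gives rise to the first hematopoietic stem cells. RNA was sequenced from C57BL/6 embryos with no genetic or drug treatment in any group. At embryonic day 9.5 (E9.5) the tissue was divided into the dorsal and the ventral aorta with their surroundings (E9 AoD and E9 AoV), and at E10.5 into the same domains (E10 AoD and E10 AoV) and the urogenital ridges (E10 UGR), which flank the aorta. Each of the 5 groups had 3 libraries, 15 in all, each made from tissue pooled from 15 to 34 embryos in separate experiments, and sexes were not given in the labels.

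Arterial endothelium carries the transmembrane ligand ephrin-B2 (Efnb2), and venous endothelium carries its receptor EphB4 (Ephb4), and signaling between them keeps both vessel types apart. Notch signaling and the SoxF transcription factors promote the arterial program, while the nuclear receptor COUP-TFII (Nr2f2) restrains it in veins. None of these genes is restricted to vessels, because Nr2f2 is also abundant in embryonic mesenchyme, the neuropilins and Unc5b act in axon guidance, and Efnb2 is expressed in somites and neural tissue.

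Levels are in RPM, the reads of a gene for each 1e6 reads that fell on genes in that library, and a value with ± is a mean and its SD over the 3 libraries of a group. Depth was 33.7 to 48.7 M reads per library (M, 1e6), so that the lowest member value, 6.07 RPM of Sox17 in a UGR library, still rested on about 221 reads. Differences are log2 fold changes on log2(RPM + 0.1), fitted with limma across all 18553 genes, and adjusted p values are Benjamini-Hochberg values over all of these genes. A member passed the test at an adjusted p under 0.05, and it was called when its fold change was also at least 2. The tissue markers followed the labels: the summed level of 7 urogenital ridge markers (Wt1, Pax2 and others) was 654 to 709 RPM in E10 UGR and 50.3 to 73.7 RPM in E10 AoD. It was 411 to 443 RPM in E10 AoV, so the ventral aorta of E10.5 held urogenital ridge transcripts as well. The sum does not stand for each marker, because 5 of the 7 passed as lower in E10 AoV than in E10 UGR and 1 as higher (median log2 -2.59). All 13 pan-endothelial genes (Pecam1, Cdh5 and others) were detected in every group. Together they reached 339 to 456 RPM for E9 AoD, 649 to 678 for E9 AoV, 765 to 832 for E10 AoD, 763 to 811 for E10 AoV and 535 to 559 for E10 UGR. E9 AoD was thus the group with the least endothelial RNA, and its library 3 was the lowest of the 15. In whole tissue, fewer endothelial cells and less RNA of a gene per cell cannot be told apart. Each comparison was therefore also made relative to the mean log2 level of the 13 pan-endothelial genes in the same library, hereafter the relative scale. On it the median of all genes moved by -0.94 in E10 AoD against E9 AoD, -0.22 in E10 AoV against E9 AoV, -0.65 in E9 AoV against E9 AoD and 0.06 in E10 AoV against E10 AoD, and values are read against these shifts.

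Promoters are shown for the ligand and receptor pair Efnb2 and Ephb4 and for Gja5 and Nr2f2, an arterial and a venous member whose ratio set E10 AoD apart. The sequences are the 250 bases before the gene start in RefSeq on GRCm38.p6, 5′ to 3′ on the strand of the gene, with capitals marking matches on either strand to the GC box GGGCGG and the CCAAT box.
Efnb2 (chr8:8661243-8661492, minus strand): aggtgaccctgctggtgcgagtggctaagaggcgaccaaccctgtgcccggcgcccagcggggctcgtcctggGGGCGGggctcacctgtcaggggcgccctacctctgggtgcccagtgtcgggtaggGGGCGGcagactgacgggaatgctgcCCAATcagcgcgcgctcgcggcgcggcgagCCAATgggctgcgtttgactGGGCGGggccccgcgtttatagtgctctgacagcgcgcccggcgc
Ephb4 (chr5:137349859-137350108, plus strand): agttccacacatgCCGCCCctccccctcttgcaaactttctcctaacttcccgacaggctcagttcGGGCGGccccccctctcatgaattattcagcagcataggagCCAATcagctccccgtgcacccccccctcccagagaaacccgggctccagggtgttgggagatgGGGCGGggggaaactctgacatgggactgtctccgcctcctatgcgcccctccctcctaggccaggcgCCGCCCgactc
Gja5 (chr3:97032152-97032401, plus strand): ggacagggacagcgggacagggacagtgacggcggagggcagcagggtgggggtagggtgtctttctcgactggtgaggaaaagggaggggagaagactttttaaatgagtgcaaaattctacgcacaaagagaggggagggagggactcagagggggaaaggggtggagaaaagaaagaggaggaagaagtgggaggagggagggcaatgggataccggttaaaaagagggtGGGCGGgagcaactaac
Nr2f2 (chr7:70366747-70366996, minus strand): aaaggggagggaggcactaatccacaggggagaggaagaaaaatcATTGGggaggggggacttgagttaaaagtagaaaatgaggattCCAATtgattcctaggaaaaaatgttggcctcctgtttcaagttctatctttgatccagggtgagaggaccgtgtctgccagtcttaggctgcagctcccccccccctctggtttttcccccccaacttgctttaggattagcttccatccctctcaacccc
The Efnb2 promoter was 72% G or C with 27 CpG dinucleotides, and that of Ephb4 was 64% with 12. The Gja5 promoter had 56.4% and 7 CpG, and that of Nr2f2 had 50% and 1 CpG, against a median of 52.4% over all promoters of this length. A GC box was found in 6 of the 7 members with an entry in the table (all but Nr2f2) and in 32.7% of 32851 promoters. CCAAT was found in 3 of 7 (Efnb2, Ephb4 and Nr2f2) and in 33.8% of promoters. The RBPJ core TGGGAA, the binding letters of the Notch effector, and the SOX core ACAAT were in none of the 7 windows and in 21.6% and 27.7% of all promoters. The TATA box TATAAA was found in Efnb2 alone (12.4% of promoters) and the ETS letters CCGGAA in Unc5b alone (12%). The other members with an entry are Nrp1, Nrp2 and Unc5b.

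**Figure D1:**
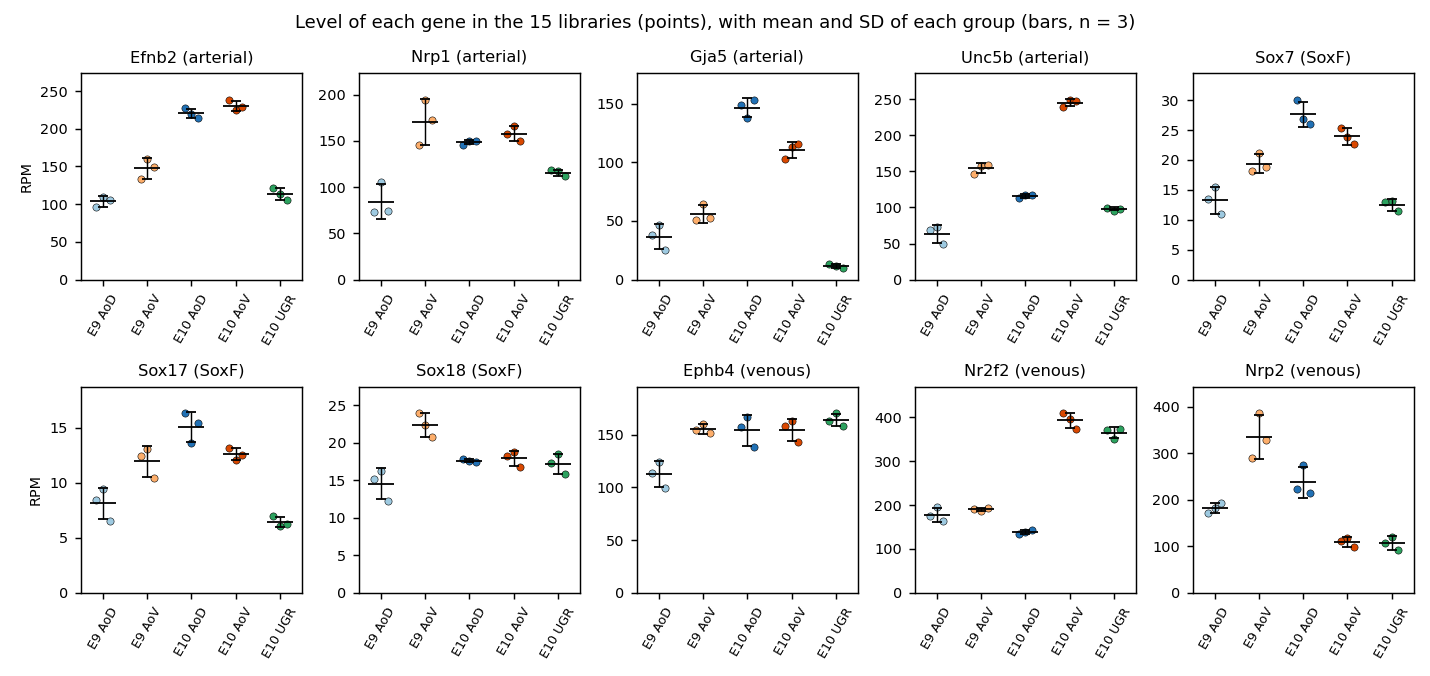
Level in RPM (y axis, linear from 0) of each of the 10 genes in the 5 groups (x axis). Points are libraries, and bars are the mean and SD of 3 libraries. Gja5 runs from 9.64 to 153 RPM, while Ephb4 stays between 99.5 and 170 RPM in every library.

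Among the arterial genes, Gja5 differed most between the aorta and the urogenital ridges. Gja5 (chr3:96708616-96881339 on NCBIM37, plus strand) encodes connexin 40, a gap junction protein of arterial endothelium. It measured 38.2, 46.7 and 25.1 RPM for E9 AoD, 50.7, 64.7 and 52.8 for E9 AoV, 149, 138 and 153 for E10 AoD, 103, 113 and 116 for E10 AoV, and 13.5, 11.4 and 9.64 for E10 UGR. All aortic libraries lay above all ridge libraries, and the E10.5 aortic libraries lay above those of E9.5 in both domains. Gja5 rose with stage in the dorsal aorta by 2.04 ± 0.174 (log2, SE, limma adjusted p = 1.7e-07) and in the ventral aorta by 0.99 ± 0.174 (adjusted p = 0.00031), which is 4.12-fold and 1.98-fold. At E10.5 it was 12.7-fold higher in AoD than in UGR (log2 3.67, adjusted p = 5.5e-10) and 9.61-fold higher in AoV than in UGR (log2 3.27, adjusted p = 6.46e-09). It was the member with the widest range, 12.7-fold between the highest and the lowest group mean. The E10.5 ventral and dorsal libraries did not overlap, but the difference of -0.41 did not pass (limma adjusted p = 0.0851, 95% interval -0.78 to -0.03), and it passed without E9 AoD library 2 or 3 (lowest adjusted p 0.0146 over all alternatives).

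Efnb2 (chr8:8617434-8661239, minus strand), the arterial ligand, measured 96, 109 and 106 RPM for E9 AoD, 133, 160 and 149 for E9 AoV, 227, 220 and 214 for E10 AoD, 238, 225 and 229 for E10 AoV, and 122, 114 and 106 for E10 UGR. The 4 aortic groups ordered by stage, and the dorsal and ventral libraries of E10.5 overlapped. Efnb2 rose with stage by 1.09 ± 0.068 dorsally (2.13-fold, limma adjusted p = 8.54e-09) and by 0.65 ± 0.068 ventrally (1.57-fold, adjusted p = 2.12e-06). At E10.5 the ventral and dorsal aorta differed by 0.07 (adjusted p = 0.494), with a 95% interval of -0.08 to 0.21. Both E10.5 aortic groups were higher than E10 UGR, by 0.95 in AoD (adjusted p = 3.71e-08) and 1.02 in AoV (adjusted p = 4.64e-08), the latter at the edge of the 2-fold rule and under it without E10 AoV library 1 or E10 UGR library 3 (lowest value 0.97). E9 AoD and E10 UGR, its lowest groups, differed by 0.14 (adjusted p = 0.0973).

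Unc5b (chr10:60225358-60294329, minus strand), a netrin receptor of arteries and sprouting vessels, was the arterial member that ordered by position. It measured 68.6, 72.6 and 49.5 RPM for E9 AoD and 147, 158 and 159 for E9 AoV, and 113, 117 and 118 for E10 AoD against 240, 249 and 248 for E10 AoV. No ventral library overlapped a dorsal one of the same stage. The ventral aorta exceeded the dorsal by 1.30 ± 0.0985 at E9.5 (2.46-fold, limma adjusted p = 7.16e-08) and by 1.08 ± 0.0985 at E10.5 (2.12-fold, adjusted p = 5.57e-07). It also rose with stage, by 0.89 dorsally (adjusted p = 2.51e-06) and 0.67 ventrally (adjusted p = 6.18e-05). The ridges, at 99.7, 95.6 and 98.6 RPM, lay just under E10 AoD, with a difference of 0.24 that did not pass (adjusted p = 0.0641). It passed with upper-quartile scaling, with quantile normalization and without E9 AoD library 2 or 3 (lowest adjusted p 0.000275). Mesenchymal markers (Foxf1a, Gata4, Gata6, Hand2 and Isl1) also had a higher sum ventrally. It was 432 to 474 RPM in E9 AoV against 48.0 to 83.6 in E9 AoD. At E10.5 it was 576 to 628 RPM in AoV against 103 to 128 in AoD. All 5 passed as higher ventrally at E9.5, and at E10.5 4 passed as higher and 1 as lower. The part of mesenchyme in the Unc5b values was not tested.

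Nrp1 (chr8:130882973-131029362, plus strand), a co-receptor for VEGF-A and semaphorins with an arterial bias, measured 72.6, 106 and 74.5 RPM for E9 AoD, 145, 194 and 172 for E9 AoV, 146, 150 and 150 for E10 AoD, 157, 166 and 150 for E10 AoV, and 118, 117 and 112 for E10 UGR. E9 AoD was the lowest group, and the other aortic groups overlapped. Nrp1 rose with stage in the dorsal aorta by 0.84 ± 0.119 (limma adjusted p = 2.88e-05), while in the ventral aorta the difference was -0.10 (adjusted p = 0.518, 95% interval -0.36 to 0.15). At E9.5 it was 2.04-fold higher ventrally than dorsally (log2 1.02, adjusted p = 5.77e-06), a value that fell under the 2-fold rule without E9 AoD library 1, E9 AoD library 3 or E9 AoV library 2 (lowest value 0.93). The excess over UGR was 0.45 in E10 AoV (adjusted p = 0.011) and 0.36 in E10 AoD (adjusted p = 0.0255), the latter with an adjusted p up to 0.0757 when any single E10 AoD or E10 UGR library was left out, and lost also with no filter on low values.

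The SoxF genes encode transcription factors that act redundantly in arterial specification, and Sox17 is also required in hemogenic endothelium. Sox7 (chr14:64562511-64569569, plus strand) measured 13.5, 15.4 and 10.9 RPM for E9 AoD, 18.1, 21.2 and 18.8 for E9 AoV, 30, 26.8 and 26 for E10 AoD, 25.4, 23.8 and 22.6 for E10 AoV, and 12.9, 13.1 and 11.4 for E10 UGR. Sox7 thus lay higher in every E10.5 aortic library than in any E9.5 or ridge library. It rose with stage by 1.06 ± 0.108 dorsally (2.09-fold, limma adjusted p = 1.04e-06). The ventral rise of 0.31 (adjusted p = 0.0315) was lost without E9 AoV library 1 or 3 or E10 AoV library 1 or 2, and with no filter on low values (highest adjusted p 0.111).

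Sox17 (chr1:4481009-4486494, minus strand) measured 8.41, 9.4 and 6.56 RPM for E9 AoD, 12.4, 13.1 and 10.4 for E9 AoV, 16.3, 13.6 and 15.4 for E10 AoD, 13.2, 12.1 and 12.5 for E10 AoV, and 6.96, 6.07 and 6.22 for E10 UGR. Dorsally the stages did not overlap, and ventrally they did. Sox17 rose dorsally by 0.90 ± 0.121 (limma adjusted p = 1.73e-05), and the ventral difference was 0.08 (adjusted p = 0.629, 95% interval -0.18 to 0.34). Against UGR it was higher by 1.22 in E10 AoD (2.33-fold, adjusted p = 1.19e-06) and by 0.96 in E10 AoV (adjusted p = 2.3e-05). Sox7 was higher than in UGR by 1.14 and 0.94 (adjusted p = 7.36e-07 and 1.02e-05).

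Sox18 (chr2:181404541-181406345, minus strand), which also acts in lymphatic endothelium, had another order. It measured 15.2, 16.2 and 12.2 RPM for E9 AoD, 23.9, 22.4 and 20.8 for E9 AoV, 17.8, 17.6 and 17.4 for E10 AoD, 18.2, 18.7 and 16.8 for E10 AoV, and 17.3, 18.5 and 15.8 for E10 UGR. The E9 AoV libraries were the highest, and the 3 groups of E10.5 overlapped. Sox18 was higher in E9 AoV than in E9 AoD by 0.63 (limma adjusted p = 6.23e-05) and fell with stage ventrally by 0.32 (adjusted p = 0.0118, and 0.051 without E10 AoV library 3). It rose dorsally by 0.28 (adjusted p = 0.0173, lost without E9 AoD library 3 and with quantile normalization, where it was 0.0951), and neither E10.5 aortic group differed from UGR beyond the spread (0.04 and 0.06, adjusted p = 0.806 and 0.696).

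Among the venous members, Nr2f2 (chr7:77496832-77511621, minus strand) showed the clearest difference between the ventral and the dorsal aorta of E10.5. It measured 175, 195 and 163 RPM for E9 AoD, 192, 187 and 193 for E9 AoV, 134, 139 and 143 for E10 AoD, 409, 396 and 374 for E10 AoV, and 371, 351 and 373 for E10 UGR. Ventral and ridge libraries of E10.5 lay far above every other library, and the E10 AoD libraries were the lowest. Nr2f2 was 2.83-fold higher in E10 AoV than in E10 AoD (log2 1.5 ± 0.057, limma adjusted p = 1.38e-10), whereas at E9.5 the difference was 0.11 (adjusted p = 0.145, 95% interval -0.02 to 0.23) and passed only without E9 AoD library 2 (adjusted p = 0.0119). With stage it rose 2.06-fold ventrally (log2 1.04, adjusted p = 3.39e-09) and fell dorsally by 0.35 on the log2 scale (adjusted p = 9.13e-05). E10 AoV and E10 UGR differed by 0.11 (adjusted p = 0.184), and E10 AoD was below UGR by 1.40 (log2 -1.40, adjusted p = 1.59e-10). Between E10 AoV and E10 AoD all 7 urogenital ridge markers were higher ventrally, and of 5 mesenchymal markers 4 were higher (Gata4, Gata6, Hand2 and Isl1) and 1 lower (Foxf1a, -0.90, adjusted p = 0.00972). The sum of the 5 was 576 to 628 RPM in E10 AoV against 103 to 128 in E10 AoD, 138 to 158 in E10 UGR, and 432 to 474 in E9 AoV. The part of these tissues in the Nr2f2 values was not tested.

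Nrp2 (chr1:62749859-62865269, plus strand), a co-receptor for VEGF-C and class 3 semaphorins in veins and lymphatics, fell where Nr2f2 rose. It measured 171, 183 and 194 RPM for E9 AoD, 291, 386 and 329 for E9 AoV, 224, 275 and 214 for E10 AoD, 111, 119 and 98.4 for E10 AoV, and 108, 121 and 92.1 for E10 UGR. The ventral aorta held the most Nrp2 RNA of the 5 groups at E9.5 and, at E10.5, overlapped the ridges, the lowest. Nrp2 fell ventrally by 1.61 on the log2 scale (SE 0.12, limma adjusted p = 6.67e-08), which is 3.05-fold, and was 2.16-fold lower in E10 AoV than in E10 AoD (log2 -1.11, adjusted p = 3.1e-06). The dorsal rise of 0.37 (adjusted p = 0.0152) was lost without E9 AoD library 1 or E10 AoD library 2 (highest adjusted p 0.0819). Markers of gut endoderm and liver (Foxa1, Foxa2, Afp and 5 others) followed a like order ventrally, with a sum of 553 to 778 RPM in E9 AoV against 15.3 to 15.4 RPM in E10 AoV, and were 72.7 to 99.4 in E9 AoD, 130 to 146 in E10 AoD and 55.8 to 57.0 in E10 UGR. With stage all 8 passed as lower in AoV (median -5.76), while in AoD 5 passed as lower and 2 as higher (median -1.73). Between E10 AoV and E10 AoD, 2 passed as higher and 3 as lower (median 0.30). In these last 2 comparisons the sums thus did not stand for the whole list. The list also holds Shh, which the paper describes as dorsally polarized, so the dorsal sums need not come from gut or liver alone. The part of gut endoderm and liver in the Nrp2 values was not tested.

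Ephb4 (chr5:137791337-137819897, plus strand), the receptor for ephrin-B2, varied the least. It measured 114, 124 and 99.5 RPM for E9 AoD, 154, 160 and 151 for E9 AoV, 157, 167 and 138 for E10 AoD, 158, 163 and 143 for E10 AoV, and 163, 170 and 158 for E10 UGR. Only E9 AoD stood apart, with every library below every other. Ephb4 was higher in E9 AoV than in E9 AoD by 0.47 (limma adjusted p = 0.00021) and rose dorsally with stage by 0.45 (adjusted p = 0.000199). The other 3 aortic groups and the ridges were neighbours that did not differ beyond their spread, with steps of 0.08 (adjusted p = 0.475), 0.005 (adjusted p = 0.967) and 0.009 (adjusted p = 0.951) from the highest to the lowest.

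Levels between genes can be compared only per length, here RPM per kb of exon in the annotation. On this scale Nr2f2 was the most abundant member in 4 of the 5 groups, with 80.8 ± 3.64 RPM per kb in E10 AoV and 75.1 ± 2.5 in E10 UGR. In E10 AoD it had rank 3 with 28.5 ± 0.927, behind Efnb2 with 46.0 ± 1.36 and Ephb4 with 33.2 ± 3.17. Sox17 was the least abundant member in the 4 aortic groups, with 2.58 to 4.79 RPM per kb, and Gja5 in the ridges, with 2.0 ± 0.336. Exons of Gja5 overlap Gpr89 on the other strand over 165 bases, those of Ephb4 overlap Zan over 33 bases, and those of Nrp1 hold Mir1903 over 80 bases. Strand-specific counting was not stated, so reads in the stretches shared with Gpr89 and Zan cannot be assigned to 1 of both genes. Mir1903 lies on the same strand as Nrp1, so the strand would not separate reads there.

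**Figure D2:**
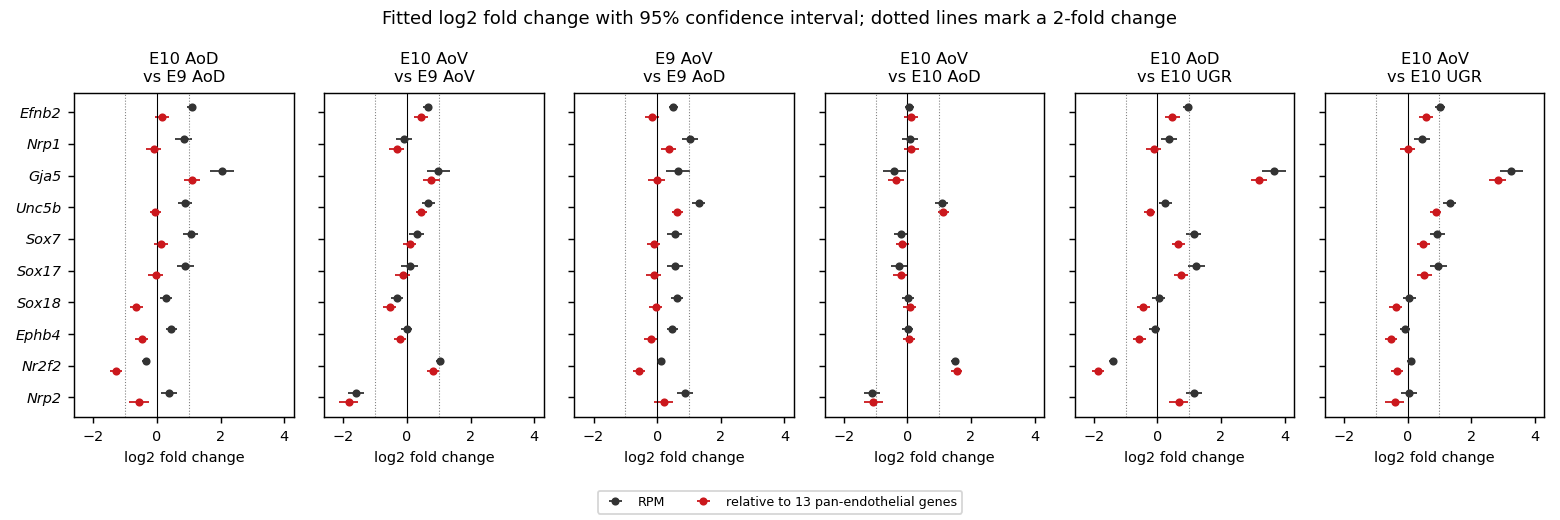
Fitted log2 fold change (x axis) of the 10 genes (y axis) in 6 comparisons, with 95% confidence intervals, in RPM (black) and relative to 13 pan-endothelial genes (red). In the first panel the black points of 9 genes lie to the right of 0, and on the relative scale Gja5 lies at 1.11 and Nr2f2 at -1.29.

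The comparison of stages in the dorsal aorta asks how vessel genes changed as the aorta matured. All 10 members passed, 9 higher and 1 (Nr2f2) lower, where 30% and 27.9% of all tested genes passed in these directions, and 3 were called (Gja5, Efnb2 and Sox7), where 12.6% of genes were. All 10 had ranges without overlap between the stages, as had 60.7% of genes. Of the 13 pan-endothelial genes 12 rose (median 1.09), and the median of the members was 0.86 against -0.002 for all genes. Other tissues moved as well: all 6 smooth muscle and pericyte markers rose (median 2.57, sum 155 to 253 RPM at E9.5 and 718 to 872 at E10.5), all 6 neural crest and sympathetic markers rose (median 3.0, sum 47.4 to 57.9 and 279 to 328), and all 6 neural tube markers fell (median -3.25, sum 188 to 343 and 30.5 to 53.2). Their part in the members' values was not tested. On the relative scale 1 member passed as higher and 4 as lower, where 5.43% and 83.1% of all genes did. Calls were made for 2 of them, Gja5 (1.11, limma adjusted p = 3.9e-08) and Nr2f2 (-1.29, adjusted p = 1.03e-10), against 46% of genes. Gja5 fell under the 2-fold rule there without E9 AoD library 3 (0.98). Efnb2, Nrp1, Unc5b, Sox7 and Sox17 did not pass on the relative scale, with values between -0.10 and 0.15, and Sox18 (-0.65), Ephb4 (-0.48) and Nrp2 (-0.56) passed as lower. Efnb2 passed there without E9 AoD library 3 and with quantile normalization (lowest adjusted p 0.00228). The Nr2f2 value was below the shift of all genes, and the values of the other 9 were above it.

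In the ventral aorta, 5 members rose with stage (Efnb2, Gja5, Unc5b, Sox7 and Nr2f2), 2 fell (Nrp2 and Sox18) and 3 did not pass. In all genes 23.6% rose and 22.4% fell. Calls were made for 2 members, Nr2f2 and Nrp2, against 11% of genes, and the ranges of 7 did not overlap, against 55% of genes. Of the pan-endothelial genes 6 of 13 rose (median 0.26). Relative to them 4 members passed as higher and 3 as lower, against 11% and 37.2% of genes, and 1 was called, against 10.9%. This was Nrp2 (-1.83, limma adjusted p = 1.45e-09), while Nr2f2, Gja5, Unc5b and Efnb2 rose by 0.82, 0.77, 0.45 and 0.43, and Sox18 and Nrp1 fell by 0.54 and 0.32. The Nrp1 value did not pass without E9 AoV library 2 or 3 or E10 AoV library 1 or 3 (highest adjusted p 0.135).

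The change with stage differed between the domains for 9 of the 10 members by the test of the interaction, all but Unc5b (-0.22, limma adjusted p = 0.282), 1 of them higher and 8 lower, where 11.8% and 16.3% of all genes passed. Calls were made for 3 members, Nr2f2 (1.40), Nrp2 (-1.98) and Gja5 (-1.06), against 11% of genes. Gja5 was not called without E9 AoD library 3 (-0.81) or E9 AoV library 2, and Nrp1 was called without E9 AoD library 2 (-1.12) or E9 AoV library 1. For 8 of these 9 the dorsal change was the more positive, and Nr2f2 alone ran the other way. Relative to the pan-endothelial genes, whose scale moved the median of all genes by 0.73 in this test, the interaction passed for 3 members, Nr2f2 (2.11, adjusted p = 1.01e-10), Nrp2 (-1.27, adjusted p = 3.83e-05) and Unc5b (0.50, adjusted p = 0.000988). These were 2 higher and 1 lower, against 74.1% and 4.82% of genes, and Nr2f2 and Nrp2 were called, against 19.8%. The Unc5b value was below the shift of all genes. Across the 15 libraries Nr2f2 and Nrp2 hardly followed the mean pan-endothelial level (r = 0.0996 and 0.0613), so their relative values need not describe endothelium.

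**Figure D3:**
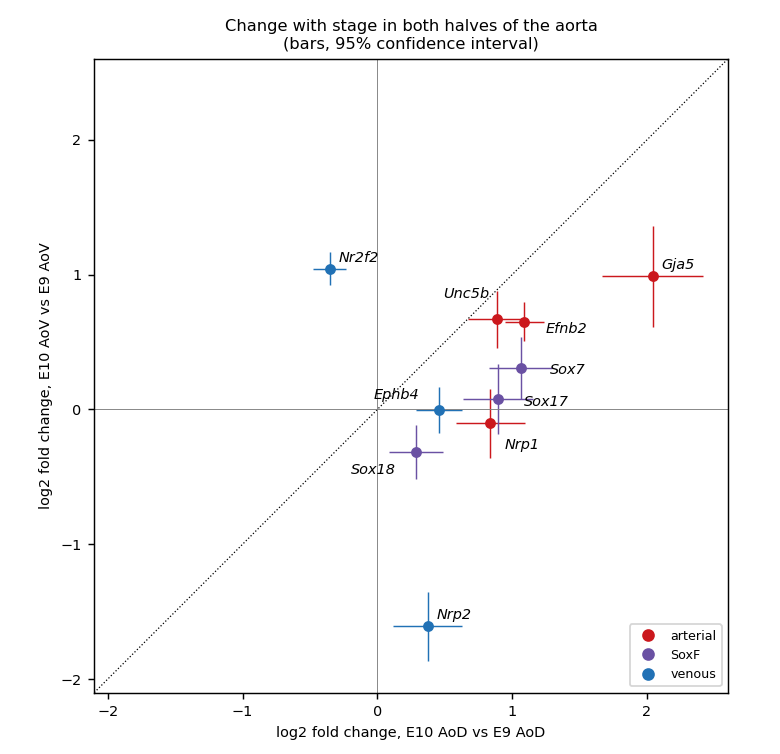
Change from E9.5 to E10.5 as log2 fold change in the dorsal (x axis) and the ventral aorta (y axis) for the 10 genes, with 95% confidence intervals and a dotted line of equal change. All genes but Nr2f2 lie below the line. Nr2f2 (-0.35 and 1.04) and Nrp2 (0.37 and -1.61) lie farthest from it.

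Between the ventral and the dorsal aorta of E9.5, 9 members were higher ventrally and none lower, where 27.5% of all genes were higher and 20.1% lower. Nr2f2 did not pass with all libraries. Calls were made for Unc5b and Nrp1, against 11.8% of genes, and the ranges of 9 did not overlap, against 51.3% of genes. In this comparison 12 of 13 pan-endothelial genes were higher ventrally (median 0.65), and 6 neural tube markers summed to 188 to 343 RPM in E9 AoD against 17.1 to 21.0 in E9 AoV. Somite markers summed to 471 to 472 RPM in E9 AoD against 54.0 to 77.2 in E9 AoV, and 6 of 7 passed as lower ventrally. Of the mesenchymal markers all 5 passed as higher ventrally, as did 6 of 8 gut endoderm and liver markers. Of 6 smooth muscle and pericyte markers 5 were higher ventrally, and these lists had none passing as lower. The part of neural tissue, of these other tissues and of the endothelial share in the members' values was not tested. Relative to the pan-endothelial genes limma called 0 members, against 15.4% of genes, and 4 had an unadjusted p under 0.05. By adjusted p, 2 were higher, Unc5b (0.63, adjusted p = 1.33e-06) and Nrp1 (0.36, adjusted p = 0.00633), and 1 was lower ventrally, Nr2f2 (-0.56, adjusted p = 8.95e-06), against 7.78% and 74.9% of genes. This Nr2f2 value lay above the shift of all genes of -0.65, and in RPM its difference was 0.11. The Nrp1 value did not pass without E9 AoD library 1 or E9 AoV library 2 (highest adjusted p 0.0683). Members on the other side of the threshold under some setting were Efnb2 (without E9 AoD library 1), Ephb4 (without E10 AoD library 2 or 3, or with a score over 4 genes) and Nrp2 (without E9 AoD library 3, or with quantile normalization), with lowest adjusted p of 0.0459, 0.017 and 0.0229.

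At E10.5 the pan-endothelial genes had a median of -0.02 between the ventral and the dorsal aorta, and fewer members differed. Of these 13 genes 1 passed as higher and 1 as lower ventrally, and the latter was called. Unc5b and Nr2f2 were higher ventrally and Nrp2 lower, all 3 of them called, where 20.2% of all genes were higher, 15.3% lower and 10.1% called. The ranges of 6 members did not overlap, against 49.5% of genes. Relative to the pan-endothelial genes the same 3 were called, with values of 1.13, 1.55 and -1.07 (limma adjusted p = 7.21e-10, 9.86e-12 and 4.6e-06), where 10.3% of genes were. With Gja5 (-0.36, adjusted p = 0.035, up to 0.145 without any 1 E10 AoD library, E10 AoV library 1 or 2, or the filter), 2 passed as higher and 2 as lower, against 16.5% and 8.14% of genes. Without E10 AoD library 2 the relative Nrp2 value was -0.91 and under the 2-fold rule.

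Against the urogenital ridges, E10 AoD was higher in 6 members (Efnb2, Nrp1, Gja5, Sox7, Sox17 and Nrp2) and lower in 1 (Nr2f2), where 14.5% and 24.8% of all genes passed in these directions, and 5 members were called, against 11.3% of genes. E10 AoV was higher in 6 (Efnb2, Nrp1, Gja5, Unc5b, Sox7 and Sox17) and lower in none, against 12.5% and 16.6% of genes, and 3 were called (Efnb2, Gja5 and Unc5b), against 7.57% of genes. The ranges of 8 and 7 members did not overlap, against 50.9% and 48.6% of genes. Both comparisons share the UGR libraries, as the comparisons of stage and of position share the aortic ones. Of the pan-endothelial genes 10 and 9 of 13 were higher in the aorta and 1 was lower in each (medians 0.54 and 0.60). Relative to them Gja5 kept its call in both, at 3.19 and 2.83 (limma adjusted p = 1.58e-14 and 5.54e-13), and Nr2f2 was called lower in E10 AoD (-1.88, adjusted p = 2.57e-13), where 15.2% and 9.31% of genes were called in AoD and AoV. In each, 5 members passed as higher and 4 as lower on this scale, against 5.38% and 77% of genes in AoD and 4.87% and 72.8% in AoV. Unc5b in AoD (-0.24) did not pass without E10 AoD library 1 or E10 UGR library 3, nor Nrp2 in AoV (-0.40) without E10 AoV library 3 or E10 UGR library 2 (highest adjusted p 0.0817 and 0.0816). Ephb4 and Sox18, level in RPM, were lower in both on that scale (Ephb4 -0.58 and -0.52, Sox18 -0.45 and -0.38), close to the shifts of all genes of -0.54 and -0.48.

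Ratios of an arterial to a venous gene within a library do not depend on the scaling between libraries. The gene pairs and the tests of their ratios were not planned. The ratio of Efnb2 to Ephb4 was 0.929 ± 0.12 for E9 AoD, 0.950 ± 0.0752 for E9 AoV, 1.44 ± 0.117 for E10 AoD, 1.5 ± 0.111 for E10 AoV and 0.697 ± 0.0449 for E10 UGR. It separated the stages in the aorta without overlap, by 0.65 on the log2 scale over 6 libraries against 6 (exact permutation test, two-sided p = 0.00216, the smallest the design allows, adjusted p = 0.013 over 6 tests). Dorsal and ventral libraries of a stage may come from the same embryos, so that these 12 libraries need not be independent and the p of each ratio may be too small. With 3 pools against 3 the test could not go below 0.1. The ratio differed by 0.64 within AoD and 0.66 within AoV, and the difference between AoV and AoD was 0.05 (exact permutation p = 0.794). Every ridge library was below every aortic library.

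The ratio of Gja5 to Nr2f2 was 0.204 ± 0.0445 for E9 AoD, 0.295 ± 0.0448 for E9 AoV, 1.06 ± 0.0604 for E10 AoD, 0.282 ± 0.0293 for E10 AoV and 0.0316 ± 0.00533 for E10 UGR. E10 AoD alone stood out among the aortic groups. The log2 difference between stages was 2.40 within AoD and -0.06 within AoV, and the pooled difference of 1.17 did not hold after adjustment (exact permutation test, two-sided p = 0.039, adjusted p = 0.0779, lost even unadjusted in 6 of the 12 fits without 1 library, namely each E9 AoD library, E9 AoV library 1 or 3 or E10 AoD library 1). Between AoV and AoD it differed by -0.68 (exact permutation p = 0.186), by 0.54 at E9.5 and -1.91 at E10.5. The ratio of Nrp1 to Nrp2 was 0.463 ± 0.103, 0.508 ± 0.0131, 0.633 ± 0.0795, 1.44 ± 0.0698 and 1.09 ± 0.125 in the same order of groups. It rose with stage by 0.99 (exact permutation test, two-sided p = 0.00433, adjusted p = 0.013), by 0.47 within AoD and 1.51 within AoV. Between AoV and AoD it differed by 0.68 (exact permutation p = 0.119), by 0.16 at E9.5 and 1.2 at E10.5.

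**Figure D4:**
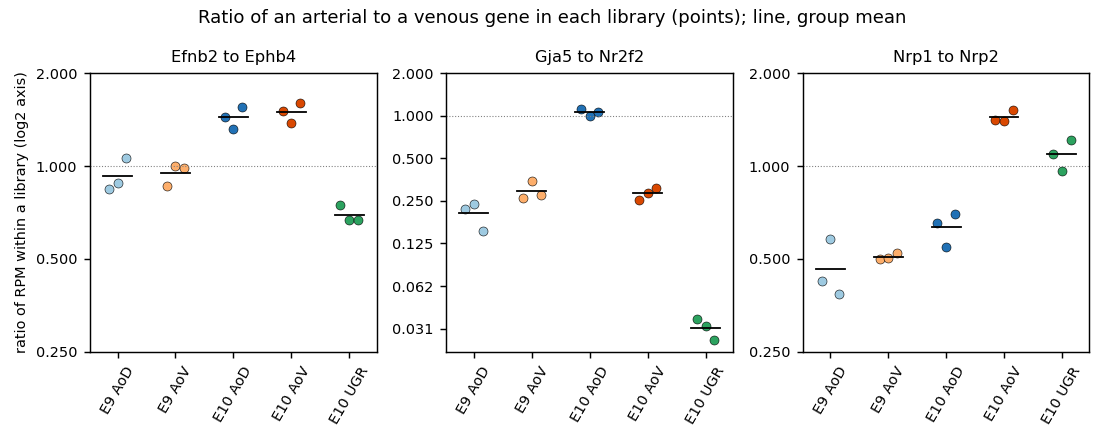
Ratio of RPM of 2 genes within a library (y axis, log2 scale, different limits per panel) in the 5 groups (x axis). Points are libraries, lines are group means, and the dotted line marks a ratio of 1. Efnb2 to Ephb4 lies above 1 in all E10.5 aortic libraries. Gja5 to Nr2f2 comes near 1 only in E10 AoD (0.993 to 1.11), and Nrp1 to Nrp2 exceeds 1 in all E10 AoV libraries.

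Other vessel genes were followed by list. Of 15 further arterial genes (16 gene IDs, because Mecom has a pair), 12 IDs rose and 3 fell with stage in AoD and 10 rose and 1 fell in AoV, with medians of 0.85 and 0.50. As log2 fold changes, Bmx (2.74 in AoD and 1.66 in AoV), a kinase of arterial endothelium, and Sema3g (1.72 and 1.0), an arterial semaphorin, were called in both, while Epas1 (2.44), Gja4 (1.79), Dll4 (1.03) and both Mecom IDs (1.24 and 1.75) were called in AoD. Against UGR the values of Gja4, which encodes connexin 37, were 3.37 in AoD and 2.96 in AoV, close to those of Gja5. Those of the Notch ligand gene Dll4 were 2.25 and 2.02. Bmx (3.59 and 3.46), Sema3g (2.75 and 2.28), Epas1 (2.39 and 1.68) and Jag2 (1.5 and 1.12) were also called in both, Cxcr4 (1.87) and Tmem100 (1.13) in AoD and Hey2 (1.46) in AoV. Over the list, 14 IDs were higher and 1 lower in AoD, and 11 higher and 2 lower in AoV. At E9.5, Notch1 (-1.45) and Cxcr4 (-1.66), both also expressed in neural tissue, were called lower in AoV than in AoD, unlike the arterial members, and 6 IDs passed in each direction. Mecom (-1.21 and -1.05) was called lower in the E10.5 AoV than in the AoD of that stage, where 10 IDs passed as lower and 1 as higher.

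Of 8 further venous and lymphatic genes measured, 4 rose and 3 fell with stage in AoD, and 1 rose and 4 fell in AoV. Vwf, a coagulation factor gene with a venous bias in adults, moved with Gja5 instead, at 45.6 ± 14.1 RPM for E9 AoD, 74.3 ± 9.69 for E9 AoV, 193 ± 8.72 for E10 AoD, 190 ± 13.1 for E10 AoV and 17.9 ± 3.15 for E10 UGR. Aplnr, the apelin receptor of veins, was called lower in both E10.5 aortic groups than in UGR (-1.47 and -1.07). The lymphatic gene Lyve1 was 3.36 higher in E9 AoV than in E9 AoD (log2), at 8.55 ± 1.27 against 0.777 ± 0.305 RPM, rose in AoD (1.42) and fell in AoV (-1.17). Nt5e (-1.11) was called lower with stage in AoV and Dab2 (1.11) higher in E9 AoV than in E9 AoD. Against UGR, Prox1 (1.09) and Lyve1 (1.09) were called higher in E10 AoV.

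**Figure D5:**
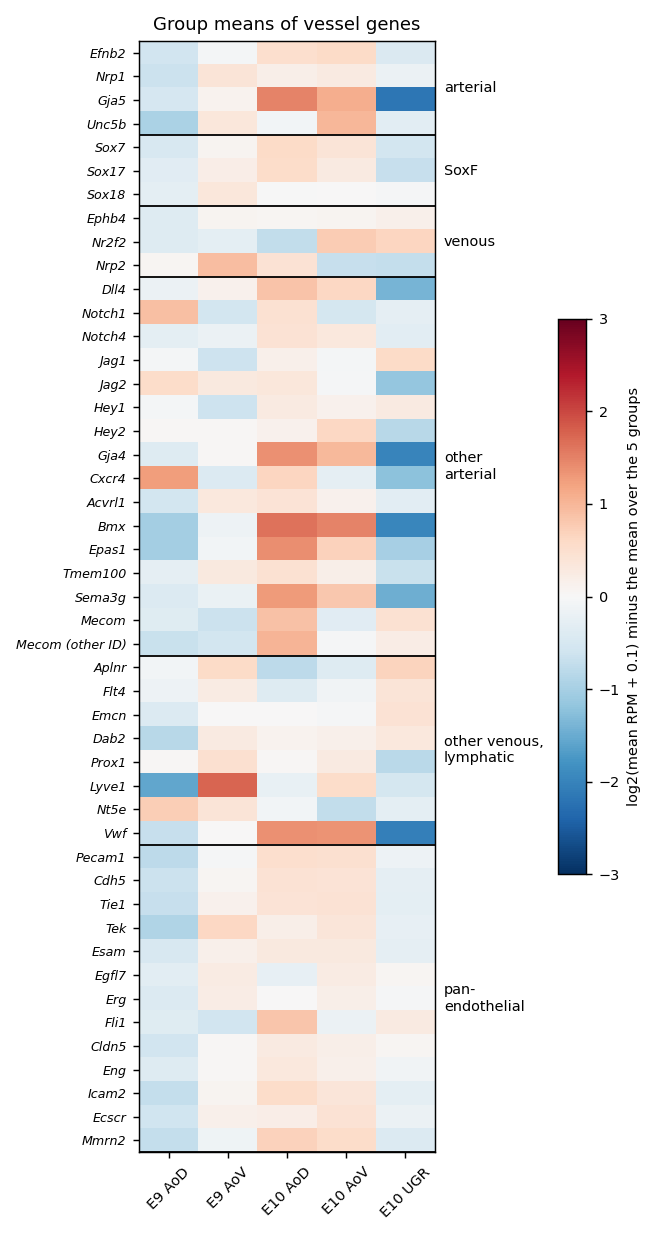
Group means of vessel genes as log2(mean RPM + 0.1) minus the mean over the 5 groups (color), with genes in rows by list and groups in columns. Gja5, Gja4, Bmx, Sema3g and Vwf share high values in both E10.5 aortic groups and the lowest values in E10 UGR.

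The ligands and partners of the members were described in the same way. Of 6 other B-class ephrins and Eph receptors, 1 was called in any of the 6 comparisons, Efnb1, which was lower in E10 AoD than in UGR (-1.39) at 62.2 ± 6.31 against 163 ± 4.04 RPM. Of 18 neuropilin ligands and co-receptors, 8 rose and 3 fell with stage in AoD, and 2 rose and 9 fell in AoV. The semaphorin gene Sema3e, whose product repels vessels through plexin-D1, was called lower with stage in both (-1.71 and -2.29), and Plxna4 was called higher in AoD (1.65) and Figf lower in AoV (-1.14). At E10.5 Sema3c (1.23) and Sema3b (1.0) were called higher and Sema3d (-1.28) and Figf (-1.55) lower in AoV than in AoD. Vegfc, a ligand of the lymphatic receptor VEGFR-3, was called higher than in UGR in AoD (1.70) and AoV (1.73), as was Plxna4 (1.14 and 1.03). In AoD alone Figf (1.51) was called higher and Sema3b (-1.03) and Sema3c (-1.49) lower than in UGR. At E9.5 Plxna4 (1.5) and Sema3b (1.07) were called higher and Sema3d (-1.14) lower in AoV than in AoD.

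Unc5b differed in direction from its best-known ligand gene. Ntn1, which encodes netrin-1 and is abundant in floor plate and somites, measured 240 ± 11.6 RPM for E9 AoD, 45.4 ± 2.02 for E9 AoV, 219.7 ± 20.8 for E10 AoD and 23.2 ± 2.39 for E10 AoV, and was called lower ventrally at both stages (-2.40 and -3.24). The related receptor gene Unc5c was called higher ventrally at both stages (2.14 and 2.59), as was Unc5d (1.07 and 2.25), in the same direction as Unc5b. Dcc was called lower ventrally at both (-3.36 and -1.14) and Unc5a at E9.5 (-2.15), while Flrt3, another ligand, was called higher ventrally at E10.5 (1.66). With stage, Ntn4 was called higher in AoD (1.03) and AoV (1.02), Flrt2 (1.29) higher and Unc5a (-1.37) lower in AoD, and Unc5d (1.2) and Dcc (1.71) higher in AoV. Against UGR, Ntn4 was called higher in AoD (1.51) and AoV (1.11), Unc5c lower in AoD (-1.24) and higher in AoV (1.35), and in AoD also Ntn1 (2.31) and Unc5a (1.25) higher and Flrt3 (-1.47) and Unc5d (-1.67) lower.

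The genes with the pattern most like each member were named by Pearson's r of log2(RPM + 0.1) over all 15 libraries, among 15465 genes, as a description, since libraries of a group share tissue and stage. Those of Gja5 were Gja4 (0.996), Vwf (0.990) and Dll4 (0.989), and those of Sox17 were Aqp1 (0.978), Pdgfb (0.975) and its family member Sox7 (0.956). Those of Sox7 were Slit3 (0.981), Ace (0.975) and Calcrl (0.975), and those of Efnb2 were Chrm3 (0.986), Trim47 (0.986) and Msrb3 (0.984). Nrp1 was closest to Eps8, Fndc3b and Ehd2 (0.965 to 0.978) and Unc5b to Adam12, Csf1 and Fnbp1 (0.977 to 0.981). On the venous side Nr2f2 was closest to Nxph3 (0.988), Aldh1a1 (0.988) and Ibsp (0.980), and Nrp2 to the endoderm gene Foxa1 (0.975), Tpcn1 (0.968) and St8sia3 (0.959). Ephb4 was closest to Gbas, Snrk and Gramd1c (0.957 to 0.970), and Sox18, with the lowest values, to Slc40a1, Lyve1 and Gngt2 (0.917 to 0.920). The correlation of the members with the mean level of the 13 pan-endothelial genes was 0.881 for Efnb2, 0.874 for Sox7, 0.873 for Nrp1, 0.814 for Unc5b, 0.775 for Sox17, 0.737 for Ephb4, 0.668 for Gja5 and 0.614 for Sox18. It was 0.0996 for Nr2f2 and 0.0613 for Nrp2, the members with the weakest relation to the endothelial level.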

How the data were processed

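Per the paper's methods, the authors used TopHat with Bowtie (version 0.12.3 in the submitters' processing notes) to align single-end reads on mouse build NCBI37, assigned them to Ensembl genes with GeneProf and deposited RPM (reads-per-million) for each library. The deposited table also holds the authors' log2 fold changes and adjusted p-values of group comparisons, 12 columns not used here. The study's count model needs read counts, which were not used here, and was replaced by limma 3.58.1 (R 4.3.3) on log2(RPM + 0.1) for genes that reached 0.5 RPM in 1 library or more, with 1 mean per group over 15 libraries and an intensity trend. Ratios were compared by exact permutation tests. Depth was inferred from the step between low values, of which 68.9% to 71.6% were whole reads within the rounding, too few for a count test. Genes were named by rule: all members, list genes that were called, and the 3 most correlated genes of each member. Positions come from GENCODE for NCBIM37 (95.3% of IDs found), promoters from RefSeq. Ackr1 and Spi1 of the lists were not found by name. The members and lists were chosen with earlier results of these data known. Scripts were tested on simulated data. Replicate numbers come from the labels, and same-numbered libraries deviated together in E9 AoV and E9 AoD (r = 0.452, 0.347 and 0.19) but not in every pair elsewhere. Of 18 same-numbered pairs over all comparisons, 10 had r over 0.1. The libraries are pools from separate experiments, so p-values measure the spread between pools. Dorsal, ventral and ridge libraries of a stage may come from the same embryos, and outside the replicate block limma treated them as independent. The block shared the effect of a number between the stages, so it did not model pairing within a stage. Alternatives were other scalings, pseudocount, filter, score genes, no fold threshold, the replicate block and leaving out each library. The ratio tests with their leave-one-out and the relative interaction were not planned and were chosen after seeing the data.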

Additional observations from a re-analysis of the deposited data

Results flagged for a closer look

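For 9 of the 10 members the stage change differed between the ventral and the dorsal aorta by the interaction test in limma (adjusted p between 2.95e-08 and 0.00668). Of all tested genes, 11.8% passed as higher and 16.3% as lower. As ventral minus dorsal change on the log2 scale, the differences were -1.98 for Nrp2, -1.06 for Gja5, -0.94 for Nrp1, -0.82 for Sox17, -0.76 for Sox7, -0.60 for Sox18, -0.46 for Ephb4, -0.44 for Efnb2 and 1.40 for Nr2f2. The pan-endothelial genes had a median of -0.74 in the same test, and 12 of 13 passed as lower. Relative to them, 7 of the 10 members did not pass, among them Gja5 (-0.34, adjusted p = 0.0774, and 0.0203 without E9 AoD library 2), Nrp1 (-0.23, adjusted p = 0.191) and Sox17 (-0.10, adjusted p = 0.543), while Nr2f2 (2.11) and Nrp2 (-1.27) were called. On that scale the median of all genes moved by 0.73 in this test, and 74.1% of all genes passed as higher and 4.82% as lower. The part of the endothelial share in these differences was not tested.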

How the results depend on the processing

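Numbers of members called kept within 1.5 times of the reported ones under the other pseudocount (1 RPM), no filter, quantile normalization and the replicate block. The block left 2 members called in E9 AoV against E9 AoD, the same as without it, and changed no call of a member. Its effect of each replicate number was shared by all groups and both stages, so it cannot show what pairing within a stage would change. With the block, Ephb4 passed as lower on the relative scale in E10 AoV against E9 AoV, where it did not without it (-0.23, limma adjusted p = 0.0496 with the block and 0.0576 without), as it did without E9 AoD library 2 or 3 or E10 AoD library 2 or 3 or with the score over 4 genes (lowest adjusted p 0.00671). Upper-quartile scaling left 1 member called there, with Nrp1 at 0.99 and under the 2-fold rule. With the score over 4 genes, 1 was called on the relative scale in E10 AoD against E9 AoD, with Gja5 at 0.98. Without a fold threshold, the counts became 7 in E10 AoV against E9 AoV, 10 in E10 AoD against E9 AoD, 9 in E9 AoV against E9 AoD, 6 in E10 AoV against UGR and 9 in the interaction, and on the relative scale 7, 5, 3, 9 and 9 in the stage, E9.5 and ridge comparisons. Over all genes that rule raised calls, for example from 2046 to 8537 in E10 AoV against E9 AoV, and a pseudocount of 1 RPM lowered them in all 14 comparisons, by over 1.5 times in 13 (from 8527 to 7231 in the other, E10 AoD against E9 AoD on the relative scale), there to 1104 and to 1281, 1020, 1196, 735, 1143 and 1174 in the others in RPM (from 2337, 1874, 2187, 1404, 2100 and 2044).

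Leaving out a library gave 2 to 5 members called in E10 AoD against E9 AoD (5 without E9 AoD library 2), 1 to 2 in E9 AoV against E9 AoD and 1 to 2 on the relative scale in E10 AoD against E9 AoD. Over all tested genes, the calls ran from 2207 to 2466, from 2011 to 2338 and from 6149 to 9982 in the same order. The Gja5 to Nr2f2 ratio moved between 0.97 and 1.39 by stage, and that of Efnb2 to Ephb4 between -0.043 and 0.14 by position. Signs turned only for values that did not pass. Between E10 AoV and E10 AoD, Sox18 became -0.021 and Ephb4 -0.035 with upper-quartile scaling and -0.0082 and -0.0082 with quantile normalization, under which Ephb4 became 0.0040 in E10 AoV against E9 AoV and, on the relative scale, Unc5b 0.0098 in E10 AoD against E9 AoD and Nrp1 -0.015 in E10 AoV against UGR. With the score over 4 genes Sox7 became -0.020 ventrally and -0.0011 dorsally with stage and Nrp1 -0.20 in E10 AoV against UGR. Without single libraries Ephb4 ran from -0.068 to 0.069 (relative -0.043 to 0.16) and Sox18 from -0.0093 to 0.068 between E10 AoV and E10 AoD, and Ephb4 from -0.044 to 0.051 and Sox17 from -0.017 to 0.15 in E10 AoV against E9 AoV. Against UGR, Nrp2 ran from -0.067 to 0.13 and Sox18 from -0.00066 to 0.11 in AoV, Sox18 from -0.024 to 0.090 in AoD and relative Nrp1 from -0.0092 to 0.025 in AoV. On the relative scale, Gja5 ran from -0.14 to 0.091 and Sox18 from -0.096 to 0.010 in E9 AoV against E9 AoD, and Sox7 from -0.11 to 0.019 in the interaction. The cause was not tested. The lowest member value rested on about 221 reads.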
